A study of Mus musculus with 8 samples.

Results

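Astrocytes release or display proteins that set how many synapses form and how they mature, and 10 genes for such factors were followed here in mouse spinal cord astrocytes with and without the potassium channel Kir4.1, which the gene Kcnj10 encodes. The genes were the thrombospondins Thbs1, Thbs2, Thbs3 and Thbs4, the SPARC family genes Sparc and Sparcl1, the glypicans Gpc4, Gpc5 and Gpc6, and the chordin-like gene Chrdl1. All 10 were found by symbol in the authors' deposited table and then, by Ensembl identifier, among the 39179 identifiers of the count tables. They were chosen for the known roles of their products, with earlier results of these data known.

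The 8 libraries came from flow-sorted Aldh1l1-GFP+ cells of the spinal cord at postnatal days 12 to 14, on a mixed swiss-webster background, and every animal carried the Aldh1l1-GFP reporter. The 4 control libraries, named S1, S2, S6 and S7, are labelled wild-type and described in the series design as cre-negative, and whether these animals also carried floxed Kir4.1 alleles is not given in the sources used here. The 4 conditional knockout (cKO) libraries, S3, S4, S5 and S8, came from Aldh1l1-cre mice with both Kir4.1 alleles floxed, so cre expression followed Aldh1l1 and was not limited to the spinal cord by any label. Meninges were removed before dissociation, per the labels, and the number of animals behind each library is not given in the sources used here. Values of single libraries are listed below in the order S1, S2, S6, S7 for controls and S3, S4, S5, S8 for cKO.

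As background, thrombospondins are large secreted matrix proteins that promote the formation of structurally normal but postsynaptically silent excitatory synapses through the neuronal receptor subunit encoded by Cacna2d1. Sparcl1 encodes hevin, which promotes excitatory synapses by bridging adhesion proteins across the synaptic cleft, and Sparc encodes SPARC, a related protein that opposes hevin. Glypicans are heparan sulfate proteoglycans held by a lipid anchor. When shed from astrocytes, glypican 4 and glypican 6 recruit AMPA receptors to synapses, whereas Chrdl1 encodes a secreted BMP antagonist that promotes synapse maturation.

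Reads assigned to genes numbered 13892736 to 22050884 in the control libraries and 16521770 to 25065686 in the cKO libraries, of which rRNA-like transcripts took 32.6% to 44.4%. Kcnj10 itself was at 1181.5 to 2305.5 CPM (read counts per 1e6 reads of the TMM-adjusted library size) in controls and at 27.2 to 37.6 CPM in cKO, so the targeted gene went against no library's label. Summed over 12 astrocyte markers, the libraries held 16980.0 to 25060.0 CPM in controls and 19761 to 24255 CPM in cKO, none of the 12 genes being at 0 in all libraries. Of these markers 2, Aldh1l1 and Aqp4, rose in cKO in edgeR's test, and Aldh1l1 is the gene whose regulatory sequence drives the reporter and the cre. Oligodendrocyte markers summed to 1479.9 to 2949.8 CPM in controls and 983 to 2413 CPM in cKO, while microglial and neuronal markers each summed to at most 89.1 CPM in any library.

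No member of the set passed the test between cKO and control. Of the 10 genes, 8 were abundant enough to be tested with edgeR's quasi-likelihood test, and 0 of 8 had an adjusted p under 0.05, against 0.318% of the 14757 genes tested. At an unadjusted p under 0.05 there was 1 member, Sparc, against 9.81% of all genes tested, and control and cKO values were fully separate for 0 of 8 members, against 6.34% of all genes. At an adjusted p under 0.05, DESeq2, limma-voom and the authors' deposited table likewise called 0 of these genes. At an unadjusted p under 0.05 each of them had 2 members, Sparc and Thbs1. The share of all genes under that threshold was not counted for them. Adjusted p from edgeR ranged from 0.491 for Sparc to 0.948 for Gpc5. Log2 fold changes of cKO over control were below 0 for 5 members and above 0 for 3, with a median of −0.15 beside −0.017 over all genes tested.

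**Figure D1:**
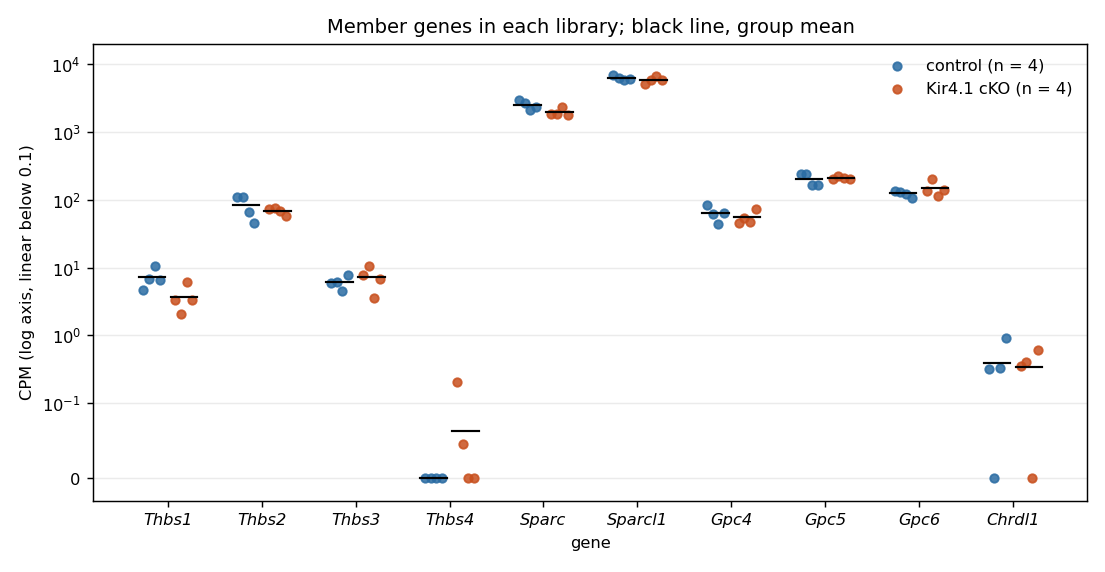
CPM of the 10 genes in each of 4 control (blue) and 4 cKO (orange) libraries, on a log axis that is linear below 0.1, with a black line at each group mean. The genes span from 0 reads to 6905 CPM, and in every gene drawn the points of the groups overlap.

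The width of the intervals sets what these libraries can say about each gene. The 95% interval of the fold change lay within 2-fold in either direction for 6 of the 8 members tested, namely Thbs2, Sparc, Sparcl1, Gpc4, Gpc5 and Gpc6. It reached beyond 2-fold for Thbs1, from −1.92 to 0.025 on the log2 scale, and for Thbs3, from −0.61 to 1.12. For Thbs1 the SD between libraries was 35.1% of the mean in controls and 45.1% in cKO, and for Thbs3 it was 20.9% and 40.5%.

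**Figure D2:**
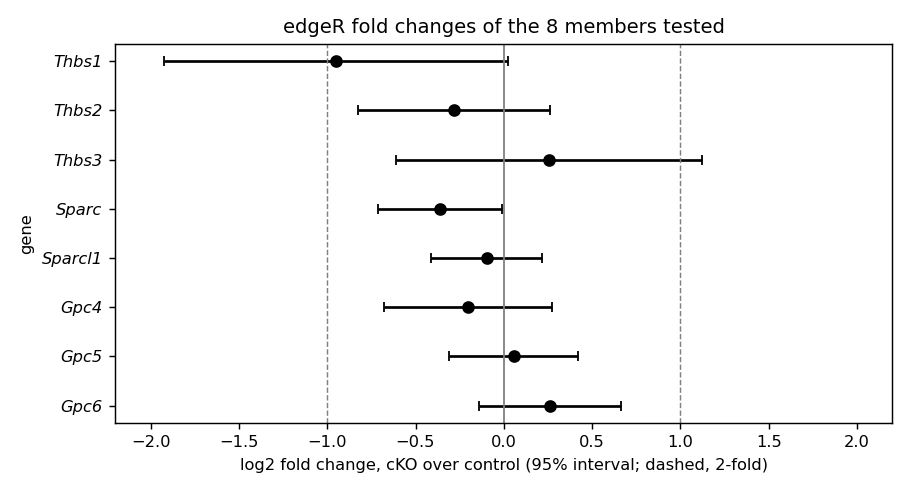
Log2 fold change of cKO over control from edgeR for the 8 members tested, with 95% intervals as bars and dashed lines at a 2-fold change. The intervals of Thbs1 and Thbs3 cross a dashed line, and that of Sparc, from −0.71 to −0.011, is the only one of the 8 that does not reach 0.

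Levels of different genes were compared per kilobase of annotated exon, because longer transcripts collect more reads. On this scale Sparcl1 was highest in controls at 2140 CPM per kilobase, which placed it at rank 4 of 21226 protein-coding genes, followed by Sparc at 665 CPM per kilobase and rank 18. Gpc5 came next at 45.5 CPM per kilobase, then Gpc4 at 23.9, Gpc6 at 19.3 and Thbs2 at 11.9. Thbs3 at 1.25 and Thbs1 at 1.17 CPM per kilobase lay far below, and Chrdl1 at 0.0572 and Thbs4 at 0 closed the order. Over the 8 libraries the ranges of neighbours in this order were separate except in 3 cases. Gpc4 was above Gpc6 in 4 of 8 libraries, Thbs3 above Thbs1 in 6 of 8, and Chrdl1 above Thbs4 in 5 of 8. By read level per kilobase, the genes for hevin and its opponent SPARC led the set.

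The authors' deposited FPKM values, another scale per length and depth, gave the same first 3 genes in controls, with means of 2518 for Sparcl1, 1905 for Sparc and 116 for Gpc5. They placed Thbs3 much higher, at a mean of 14.6 FPKM, which is 11.7 times its CPM per kilobase, whereas the same ratio was between 1.18 and 2.87 for the other 8 genes with reads in controls. Thbs3 (chromosome 3, 89215180 to 89226837, plus strand, GRCm38) shares 318 bases of exon with Mtx1 on the opposite strand, a mitochondrial import gene at 23.0 CPM ± 12.9 in controls and 18.8 CPM ± 5.62 in cKO (SD, n = 4 each). Strand use in counting is not given in the sources used here, so reads of Thbs3 and Mtx1 cannot be told apart where they overlap. Mtx1 too stood higher by FPKM, at a mean of 67.6 FPKM against 6.41 CPM per kilobase in controls. The part of the overlap in the high FPKM of Thbs3 was not tested, and the level of Thbs3 is uncertain.

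**Figure D3:**
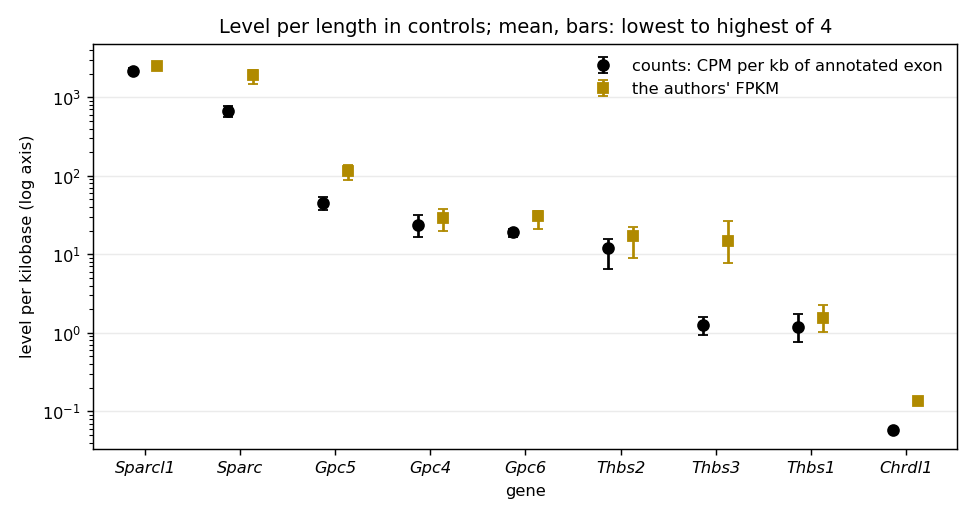
Level per kilobase in the 4 control libraries on a log axis, as CPM per kilobase of annotated exon (black) and as the authors' FPKM (yellow), with the mean and, where no library is at 0, bars from the lowest to the highest value. Both scales lead with Sparcl1 and Sparc, and they part most at Thbs3, 1.25 against 14.6.

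Among the thrombospondins Thbs2 led in CPM per kilobase and Thbs4 was close to absent from the reads. By the authors' FPKM, means were 16.9 for Thbs2 and 14.6 for Thbs3 in controls, and 13.8 and 18.8 in cKO. The lead of Thbs2 thus did not hold on that scale in cKO. The 250 bases before the RefSeq start of Thbs2 and Thbs4 are shown. These genes were the highest and lowest of the family in CPM per kilobase. Capitals mark matches, on either strand, to the CCAAT box (letters CCAAT), the TATA box (letters TATAAA) and the GC box (letters GGGCGG). The Thbs2 stretch is chr17:14694263-14694512 and the Thbs4 stretch chr13:92794819-92795068, both on the minus strand of GRCm38.p6.
Thbs2: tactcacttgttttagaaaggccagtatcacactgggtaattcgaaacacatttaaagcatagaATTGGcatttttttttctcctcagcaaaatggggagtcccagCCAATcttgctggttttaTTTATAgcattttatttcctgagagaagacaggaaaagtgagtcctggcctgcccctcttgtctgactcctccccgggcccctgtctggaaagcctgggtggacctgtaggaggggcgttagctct
Thbs4: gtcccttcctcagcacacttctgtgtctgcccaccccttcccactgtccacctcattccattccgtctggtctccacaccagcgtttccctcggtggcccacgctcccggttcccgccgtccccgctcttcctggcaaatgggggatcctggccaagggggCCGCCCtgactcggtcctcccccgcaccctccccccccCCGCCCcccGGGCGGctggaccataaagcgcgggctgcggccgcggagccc
The Thbs2 stretch held 3 CpG and 46.8% G and C, with 2 matches to the CCAAT box and 1 to the TATA box. The Thbs4 stretch held 19 CpG and 70.8% G and C, with 3 matches to the GC box, and in neither did matches overlap each other. Over 32851 RefSeq promoter stretches of the same length the median was 6 CpG, and 33.85% held a CCAAT box, 12.4% a TATA box and 32.7% a GC box.

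Thbs2 encodes thrombospondin 2, one of the forms first tied to astrocyte-driven synapse formation. Controls held 111, 109, 66.6 and 46.1 CPM, and cKO libraries 72.1, 74.8, 69.0 and 57.2 CPM. The control values thus spread around the cKO values on both sides, with S1 and S2 above all 4 and S7 below all 4. Means were 83.1 CPM ± 32.05 in controls and 68.3 CPM ± 7.77 in cKO (SD, n = 4 each). edgeR put the log2 fold change at −0.28 (SE 0.25), with an adjusted p of 0.766. It was −0.11 without control S1, −0.13 without control S2 and −0.48 without control S7, and no adjusted p of a member was below 0.509 in the last of these fits.

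Thbs1, whose product also activates latent TGF-beta, was scarcer by about an order of magnitude per kilobase. Its control values were 4.63, 6.70, 10.6 and 6.58 CPM, against 3.37, 2.09, 6.04 and 3.30 CPM in cKO. In cKO 3 of the 4 libraries lay below every control, and S5 lay above control S1. The mean was 7.13 CPM ± 2.50 in controls and 3.70 CPM ± 1.67 in cKO (SD, n = 4 each). The log2 fold change was −0.95 (SE 0.45). Its adjusted p was 0.52 with edgeR, and an exact 2-sided permutation test of log2 CPM gave 0.0571, where 4 against 4 libraries allow 0.0286 at the least. In the authors' deposited table its log2 fold change was −0.71 with an adjusted p of 0.274. DESeq2 run here on the deposited counts gave −0.948 with an adjusted p of 0.295, so the deposited fold change may not be on the same scale.

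Sums over 9 endothelial markers, whose cells also make Thbs1 and Sparc, were 64.1, 47.2, 70.7 and 45.6 CPM in controls against 53.5, 20.5, 28.6 and 27.7 CPM in cKO. The 9 fibroblast and meningeal markers summed to 122 to 588 CPM in controls and 98.9 to 169.9 CPM in cKO, and were highest in control S6, the control with the most Thbs1 and the least Sparc. The 8 mural cell markers summed to 100.6 to 122 CPM in controls and 58.9 to 97.98 CPM in cKO, so that these sums did not overlap. The mean log2 CPM of these markers did overlap, at 0.734 to 1.18 in controls and 0.639 to 1.51 in cKO. Taken singly, 1 of the 6 mural markers tested had groups that did not overlap, beside 6.34% of all genes tested. Of the 6 mural markers tested 0 passed, with 1 below the control level at an unadjusted p under 0.05, and none of the 8 was at 0 in all libraries. None of the 18 endothelial and fibroblast genes was at 0 in all libraries. Of the 15 that were tested, 0 had an adjusted p under 0.05 in edgeR's test. At an unadjusted p under 0.05, 1 lay above and 5 below the control level, beside 9.81% of all genes tested in either direction. The part of these cells in the values of Thbs1 and Sparc was not tested. In bulk libraries, fewer cells of a type and less RNA per cell cannot be told apart.

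Thbs3, which encodes a pentameric thrombospondin, was at 5.83, 6.11, 4.56 and 7.63 CPM in controls. The cKO values were 7.71, 10.7, 3.59 and 6.81 CPM, so cKO held both the highest and the lowest value. With edgeR the log2 fold change was 0.25 (SE 0.40) and the adjusted p 0.883. The log2 fold change was 0.00088 without cKO S4, 0.14 without control S6, 0.39 without control S7 and 0.48 without cKO S5.

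Thbs4, another pentameric form, had 0 reads in all 4 control libraries and 4, 1, 0 and 0 reads in the cKO libraries. A count of 0 allows up to 3 reads, which is 0.142 to 0.218 CPM across the control libraries, a limit for counting error only. It did not pass the expression filter of the main test. With every gene of at least 1 count in any library let in, edgeR gave it an adjusted p of 0.558, and no fold is given because both group means lie under the limit. The authors' deposited table gives Thbs4 a log2 fold change of 0.13 and no adjusted p. With 5 reads in all, that value does not show the gene to be unchanged.

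The SPARC family carried most reads of the set. Sparcl1 lies on the minus strand of chromosome 5, from 104079111 to 104113733, and Sparc on the minus strand of chromosome 11, from 55394500 to 55423183, both on GRCm38. The 250 bases before the RefSeq start of Sparc, chr11:55420081-55420330 on the minus strand of GRCm38.p6, are shown as the promoter entry of the most abundant member that has one, in the same notation.
Sparc: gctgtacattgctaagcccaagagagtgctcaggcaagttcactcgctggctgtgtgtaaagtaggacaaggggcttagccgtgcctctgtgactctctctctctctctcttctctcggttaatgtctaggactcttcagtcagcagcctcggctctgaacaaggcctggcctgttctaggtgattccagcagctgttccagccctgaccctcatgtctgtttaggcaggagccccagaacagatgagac
The stretch lies inside the annotated span of Sparc given above, downstream of its outermost start on the minus strand. It held 4 CpG and 54.0% G and C. It has no capitals because none of the 3 motifs matched in this window.

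Sparcl1 measured 6905, 6222, 5859 and 6150.1 CPM in controls. In cKO it measured 5084, 5892, 6644 and 5898 CPM, so the groups lay on top of each other. Its mean was 6284 CPM ± 443 in controls and 5879.5 CPM ± 637 in cKO (SD, n = 4 each), the least relative spread among controls in the set at 7.05% of the mean. The log2 fold change was −0.096, with a 95% interval of −0.41 to 0.22 and an edgeR adjusted p of 0.877, and its sign turned, to 0.0057, with library totals in place of TMM. Sparcl1 overlaps the antisense transcript Gm26703 (132 CPM ± 43.4 in controls and 82.1 CPM ± 45.9 in cKO, SD, n = 4 each), with which it shares 0 bases of exon.

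Sparc measured 2973, 2659, 2097 and 2347 CPM in controls against 1843, 1838, 2350.3 and 1805 CPM in cKO. In cKO 3 libraries lay below every control, while S5 lay above control S6 and S7. Means were 2519 CPM ± 380.1 in controls and 1959 CPM ± 261 in cKO (SD, n = 4 each). This is a log2 fold change of −0.36 (SE 0.16), or 0.778 times the control level. The unadjusted p of edgeR's quasi-likelihood test was 0.0442 and the adjusted p 0.491, and an exact 2-sided permutation test gave 0.0857. Without cKO S5, singled out here after its value was seen, the groups did not overlap, beside 8.84% of all genes tested. The log2 fold change was then −0.46, with an adjusted p no lower than 0.471 for any member in that edgeR fit. The log2 fold change was −0.275 without control S1 and −0.254 with library totals in place of TMM. Unadjusted p from edgeR were 0.124 and 0.168 in these 2 fits. From the deposited FPKM the log2 fold change was −0.12 on the log2(FPKM + 1) scale.

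Because hevin and SPARC act against each other, their reads were also set against each other within each library, a ratio that no scaling between libraries touches. Controls held 2.32, 2.34, 2.79 and 2.62 reads of Sparcl1 for each read of Sparc, and the cKO ratios were 2.76, 3.21, 2.83 and 3.27. The cKO values were above all controls except that S3 lay below control S6. The mean ratio was 2.52 ± 0.228 in controls against 3.01 ± 0.259 in cKO (SD, n = 4 each), given as a description with no test.

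**Figure D4:**
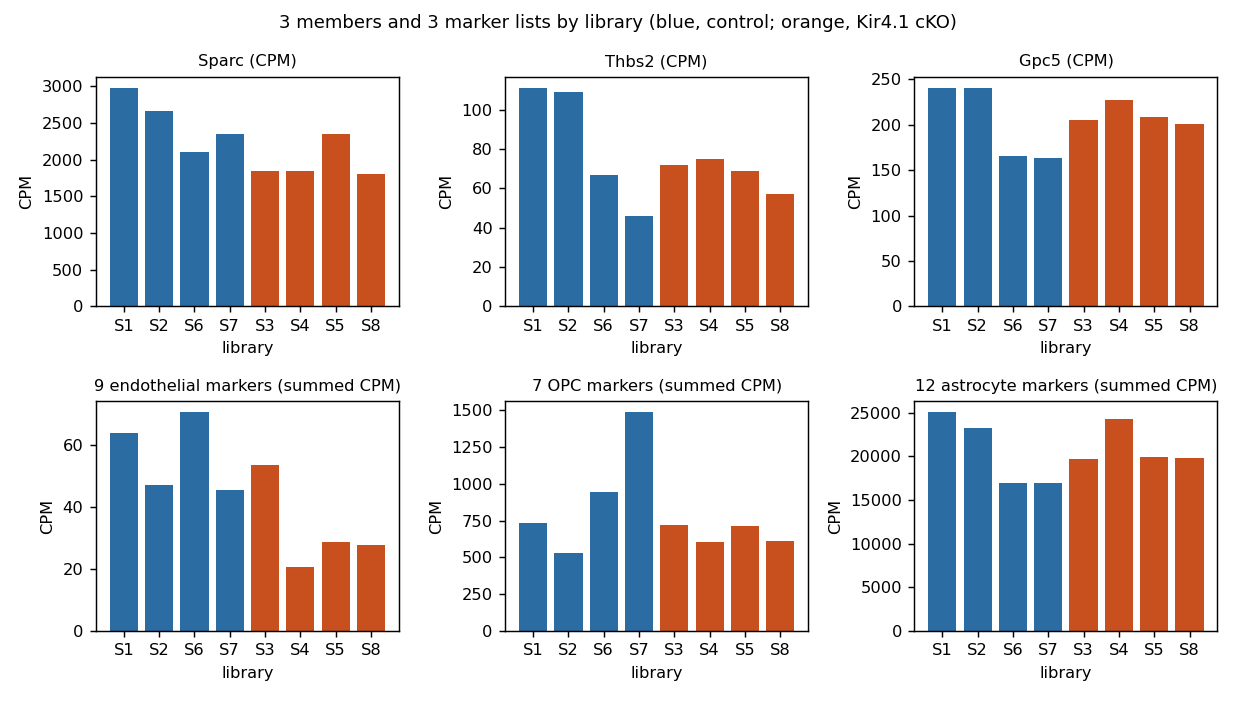
CPM of Sparc, Thbs2 and Gpc5 (top) and summed CPM of endothelial, oligodendrocyte precursor (OPC) and astrocyte markers (bottom) in each library, control in blue and cKO in orange, with bars from 0. Sparc in cKO S5 stands at control level, and control S1 and S2 stand above S6 and S7 for Thbs2, Gpc5 and the astrocyte markers.

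Gpc5 was the leading glypican. It spans 115092215 to 116525179 of chromosome 14 (plus strand, GRCm38), upstream of Gpc6, which spans 116925315 to 117976544 of the same strand. Gpc5 measured 240.1, 240.2, 166 and 164 CPM in controls and 205, 227, 208 and 201 CPM in cKO. All 4 cKO values lay in the gap between the controls, S1 and S2 above and S6 and S7 below. The log2 fold change was 0.055 with a 95% interval of −0.31 to 0.42, its edgeR adjusted p was 0.948, and its sign turned without control S6 or control S7, to −0.029 each time. Gpc5 shares 107 bases of exon with Gm20713 on the opposite strand, a transcript at 7.88 CPM ± 1.38 in controls and 4.68 CPM ± 0.883 in cKO (SD, n = 4 each).

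Control S1 and S2 also stood above S6 and S7 in Thbs2, Sparc, Sparcl1 and Gpc6, and did not do so in Thbs1, Thbs3 and Gpc4. Summed astrocyte markers were at 25060.0 and 23226 CPM in control S1 and S2 and at 16980.0 and 16982 CPM in S6 and S7. The 7 OPC markers ran the other way, with sums of 734 and 529 CPM in control S1 and S2 and 944 and 1486 CPM in S6 and S7, beside 606 to 718 CPM in cKO. No OPC marker was at 0 in all libraries. Of the 7 OPC markers tested 0 passed in edgeR's test, and at an unadjusted p under 0.05 there were 4 below control and 0 above. For the 10 oligodendrocyte markers, 0 passed and 3 lay below control and 0 above at that unadjusted threshold. Over all genes tested that share was 9.81% in either direction. The labels give no batch for these libraries, and the part of cell makeup in the levels of Gpc5, Thbs2, Sparc, Sparcl1 and Gpc6 was not tested.

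Gpc4 lies on chromosome X, on the minus strand from 52053021 to 52165252. Its product is one of the astrocyte-released glypicans that act on AMPA receptors. Controls held 83.3, 62.2, 44.2 and 63.5 CPM, and cKO libraries 45.4, 54.1, 47.2 and 73.1 CPM. The groups overlapped over nearly their whole range, with control S6 the lowest of all 8 libraries and control S1 the highest. By edgeR the log2 fold change was −0.20 (SE 0.22) and the adjusted p 0.819, and with Xist level as a covariate it was −0.15. It was −0.044 without control S1 and −0.37 without cKO S8. That covariate was used because the labels give no sex, and Xist was at 1817 to 2400.0 CPM in control S1, S6 and S7 and cKO S4 and S8 while control S2 and cKO S3 and S5 held at most 0.562 CPM.

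Gpc6, the second of the AMPA-receptor-recruiting glypicans, was at 134, 131, 124 and 108 CPM in controls and at 136, 205, 115 and 139 CPM in cKO. In cKO 3 libraries lay above every control, S4 furthest, and S5 lay among the controls. Means were 124 CPM ± 11.5 and 149 CPM ± 39.2 (SD, n = 4 each). The log2 fold change was 0.26, with a 95% interval of −0.14 to 0.66 and an edgeR adjusted p of 0.691, and it was 0.065 without cKO S4.

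Within each library Gpc6 gave more reads than Gpc4. The ratio was 1.61, 2.10, 2.80 and 1.70 in controls against 2.998, 3.796, 2.43 and 1.90 in cKO. These ranges overlap, and since Gpc6 has 6425 bases of annotated exon against 2651 for Gpc4, a ratio near that of the lengths goes with similar levels per kilobase.

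Chrdl1, on the minus strand of chromosome X from 143285674 to 143394262, had 5, 0, 6 and 19 reads in controls. It had 7, 9, 0 and 14 reads in cKO, and did not pass the expression filter of the main test. With that filter loosened to 1 count in any library, its log2 fold change was −0.18 and its edgeR adjusted p 0.979, and the authors' deposited table gives −0.042 and no adjusted p. The highest library, control S7, was at 0.90 CPM. Both groups held 1 library with no read. The size of difference that 60 reads in all could show was not tested.

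**Figure D5:**
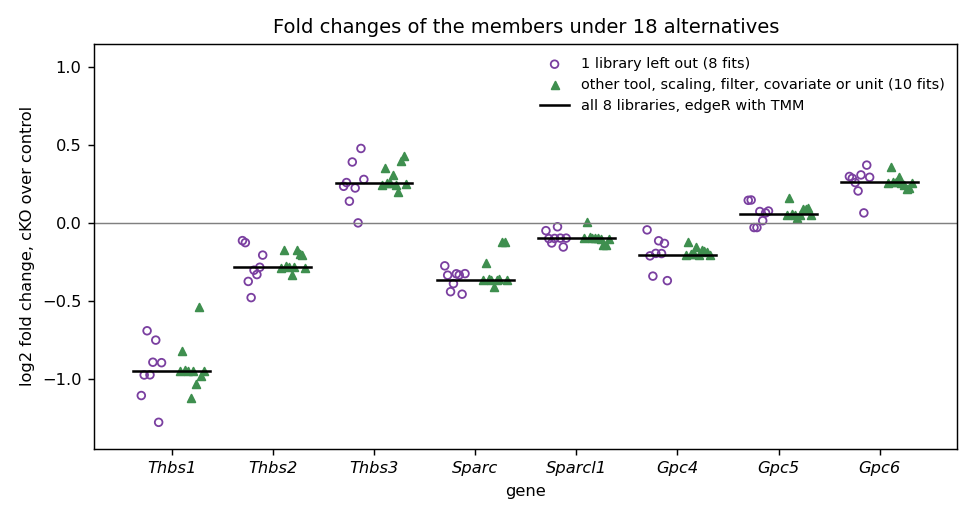
Log2 fold change of cKO over control for the 8 members tested, with a black line for edgeR with TMM on all libraries, open circles for 8 fits that each leave out 1 library and triangles for 10 fits with another tool, scaling, filter, covariate or unit. Sparc, Thbs1, Thbs2 and Gpc4 stayed below 0 and Gpc6 and Thbs3 above 0 in these 18 fits, while Sparcl1 and Gpc5 crossed 0.

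Genes that act with these factors were taken from 4 lists. The closest relatives of the members comprised 12 genes, of which 8 were tested and 0 passed in either direction, with a median log2 fold change of −0.15. The 3 most abundant per kilobase were Spock2, a SPARC-related brain proteoglycan, at 182 CPM ± 53.2 in controls and 137 CPM ± 29.8 in cKO, Fstl1 at 78.9 CPM ± 16.3 and 66.6 CPM ± 6.98, and Gpc1 at 19.5 CPM ± 5.31 and 18.7 CPM ± 2.44 (SD, n = 4 each). At an unadjusted p under 0.05, and so named after their values were seen, stood Smoc1 with a log2 fold change of 1.004 and Spock3 with −1.79, neither with an adjusted p below 0.464 in edgeR's test. Over all genes tested, 9.81% were under that unadjusted threshold.

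Receptors and binding partners were measured in the sorted cells themselves, so their levels say nothing of the neurons that carry many of them. All 16 genes of this list were tested and 0 passed in either direction, with a median log2 fold change of −0.036. Lrp1, an endocytic receptor for thrombospondins, was at 1370 CPM ± 20.0 in controls and 1674 CPM ± 232 in cKO, and Itgb1, an integrin subunit, was at 144 CPM ± 9.47 and 105 CPM ± 28.6 (SD, n = 4 each). Cacna2d1, which encodes the neuronal thrombospondin receptor subunit, was at 1.66 CPM ± 0.467 in controls and 1.22 CPM ± 1.47 in cKO. Chosen after their values were seen, the neuroligin genes Nlgn2 and Nlgn3 and the integrin gene Itgb1 had an unadjusted p under 0.05. Their log2 fold changes were −0.84, −0.70 and −0.45, and the lowest adjusted p among them was 0.395 in edgeR's test. Over all genes tested, 9.81% were under that unadjusted threshold.

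Of 21 genes for heparan sulfate synthesis and glypican release, 18 were tested and 0 passed in either direction, with a median log2 fold change of −0.20. Ext2, a subunit of the chain-elongating enzyme, Extl3, which starts the chain, and Sulf2, an extracellular sulfatase, were the most abundant per kilobase, at 158 CPM ± 181, 103 CPM ± 33.5 and 131 CPM ± 72.0 in controls and 173 CPM ± 69.4, 128 CPM ± 14.3 and 79.4 CPM ± 20.97 in cKO (SD, n = 4 each). The control mean of Ext2 rests on S6 at 429 CPM, without which it was 67.1 CPM ± 7.96 (SD, n = 3), below all 4 cKO values. Control S6 was set aside here after its value was seen, and without it the groups did not overlap for 10.5% of all genes tested. With all libraries kept, edgeR gave Ext2 a log2 fold change of 0.13 (SE 0.56) and an adjusted p of 0.963. Nearest to the threshold, and chosen after its values were seen, was Ndst3, a brain-expressed sulfotransferase of the heparan sulfate chain. It was at 29.2 to 43.4 CPM in controls and at 6.16 to 17.4 CPM in cKO, so that the groups did not overlap. edgeR gave a log2 fold change of −1.58 (SE 0.33), and its adjusted p was 0.0746. Xylt1, which starts the linkage to the core protein, was the other gene of the list with an unadjusted p under 0.05, and its log2 fold change had the opposite sign, 0.49, with an edgeR adjusted p of 0.402. Over all genes tested, 9.81% were under that unadjusted threshold and 6.34% had groups that did not overlap. Notum, whose product cleaves glypicans from their lipid anchor, was at 0.255 CPM ± 0.301 in controls and 0.0638 CPM ± 0.128 in cKO (SD, n = 4 each) and was not tested.

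Other astrocyte factors that act on synapses comprised 14 genes, of which 13 were tested and 0 passed in either direction, with a median log2 fold change of −0.056. Apoe, the main lipid carrier of astrocytes, was at 3208 CPM ± 365 in controls and 3687 CPM ± 1047 in cKO, Bcan, a perineuronal proteoglycan, at 1055 CPM ± 109.7 and 1200 CPM ± 179, and Ptn, a secreted growth factor, at 629 CPM ± 196 and 955 CPM ± 278 (SD, n = 4 each). Chosen after their values were seen, Ndp, Tgfb2, Ptn and Sema3a had an unadjusted p under 0.05, with log2 fold changes of −0.76, −0.69, 0.60 and 0.95 and no adjusted p below 0.271 in edgeR's test. Over all genes tested, 9.81% were under that unadjusted threshold. Ndp encodes norrin, a ligand of the Wnt receptor Frizzled-4. Sema3a encodes a guidance protein on which the survival and wiring of spinal motor neurons depend.

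The genes whose pattern over the 8 libraries was most like that of a member were sought among 12263 others, for the 2 members with the smallest edgeR p. The measure was the root-mean-square difference in log2 CPM after centring each gene on its mean. For Sparc these were Timp4, a matrix metalloproteinase inhibitor, at 0.094, Dhrs1 at 0.101 and Ezh1 at 0.106. For Thbs1 they were Exoc6 at 0.256, Zfp956 at 0.293 and Tex9 at 0.318, so the nearest genes to Thbs1 were less close than those to Sparc. Log2 fold changes of these 6 genes ran from −0.73 for Zfp956 to −0.25 for Dhrs1, and adjusted p from edgeR's test were 0.365 or more. The group difference is part of the pattern compared, so the shared sign of these fold changes follows from how the genes were picked.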

How the data were processed

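The authors deposited raw read counts per Ensembl gene, 1 table per library. The submitters' processing notes name GRCm38, TopHat2 2.0.11, Bowtie2 2.2.3, HTSeq 0.6.1p1, DESeq2 1.14.1, Cufflinks 2.2.1 and Cuffnorm, without roles. Strand use is not given in the sources used here. Summary lines that name no gene, 56.4% to 61.7% of all reads, were left out.

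The deposited FPKM values cover 39171 identifiers, and the authors' tool and lengths for them are not stated. Over 10829 genes only 3 of 8 FPKM columns went best with the count table that shares their name, and 8 of 8 with one from their own group, so FPKM served only as group means, ranges and group tests. The authors' deposited comparison holds, per the file headers, mean scaled counts per group (a signal), a log2 fold change, its standard error and Wald statistic (scores) and p-values with adjusted p-values.

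Counts were tested with edgeR 4.0.16 in R 4.3.3 (quasi-likelihood, TMM, filterByExpr, no covariate, Benjamini-Hochberg over all genes tested, threshold 0.05), an approach tested on simulated data. Standard errors came from the F statistic. CPM are counts over TMM-adjusted library sizes, and log2 CPM add a prior count of 2. Alternatives used DESeq2 1.42.0, limma 3.58.1 (voom, and log2(FPKM + 1) or log2(FPKM + 0.1) for genes at 0.5 FPKM or more in at least 4 columns), other scalings and filters, Xist level, and each library left out. Within groups no pair of libraries agreed within sampling noise (chi-square per degree of freedom at least 18.5), so all 8 were kept. P-values measure the spread between these libraries.

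Symbols were assigned by identifier for 37607 of 39179 identifiers. GENCODE mouse release 21 (GRCm38) gave coordinates and exon lengths, and promoter stretches from RefSeq on GRCm38.p6, which matched 6 of 10 members. The members and lists were chosen with earlier results of these data known. Every member was named. Of each pathway list, genes past the threshold (up to 8) and the 3 most abundant per kilobase were named, except that 1 gene is not reported here, and for 2 members the 3 genes of most similar pattern, over genes averaging 1 CPM or more, predicted genes and pseudogenes left out. Intervals cover 95%. Python 3.11.15 and matplotlib 3.10.9 were used.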

Additional observations from a re-analysis of the deposited data

Results flagged for a closer look

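Sparc in cKO S5, at 2350.3 CPM, lay apart from the other 3 cKO libraries, which held 1805 to 1843 CPM. Its distance to the nearest of them was 0.931 of the group's whole range, past Dixon's 95% critical value for 4 samples. This was the only such library in 19 groups of 4 values examined over the 10 genes, where chance gives about 0.95. In the same library summed endothelial markers were at 28.6 CPM, within the cKO range of 20.5 to 53.5 CPM, and Sparcl1 was at 6644 CPM, the highest of the cKO libraries. What sets cKO S5 apart was not tested.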

How the results depend on the processing

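None of the 8 tested members was called in any of the 18 alternatives, where their lowest adjusted p was 0.295, from DESeq2. Of 144 fold changes recomputed for members, 141 kept their sign. The sign turned for Sparcl1 with library totals (0.0057) and for Gpc5 without control S6 and without control S7 (−0.029 each, in a range up to 0.148 over the fits without 1 library). Library totals moved the median log2 fold change of all genes by 0.107, and raised the share of called genes that were higher in cKO from 63.8% to 77.4%. Over all genes 47 were called. The count was 87 with at least 1 count in any library, 84 with at least 10 counts in every library, 28 with Xist level as a covariate, 384 with DESeq2, 12 with limma on log2(FPKM + 1) and 11 on log2(FPKM + 0.1). It ran from 4 without cKO S4 to 45 across the fits that left out 1 library, with 14 without control S2, 16 without control S6, 24 without cKO S5, 28 without cKO S8 and 30.0 without control S1. Members whose groups did not overlap numbered 0 to 3 across those fits, with 1 without control S1 (Thbs1) and 3 without cKO S5 (Thbs1, Sparc and Gpc6), beside 10.3% and 8.84% of all genes. The cause was not tested, other than that 7 libraries overlap less readily than 8. Leaving out rRNA-like transcripts, chosen after seeing the data, gave 44 genes and 0 members. No paired analysis was possible because the groups share no replicate numbers. Few reads limit Thbs4 and Chrdl1.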
